A study of Mus musculus with 10 samples.

Results

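Among the arrays of this series, 2 of 10 compared FDB1 cells carrying the receptor FI-Delta Y577F after 72 h without IL-3 with the same cells growing in IL-3 (0 h). They were chosen by their titles, which name Y577F RNA in both channels. FDB1 is a line of mouse myeloid progenitors that depends on IL-3 for growth and can mature into granulocytes and macrophages. FI-Delta is an activated form of the common beta chain, the signalling subunit that receptors for GM-CSF, IL-3 and IL-5 have in common. FI-Delta Y577F, called Y577F below, is the same mutant with a tyrosine of its tail replaced by phenylalanine. Both lines of the series, one with FI-Delta and one with Y577F, grew in serum with mouse IL-3, were washed and were then kept with no added factor. By the study's design each line had 2 biological replicates, sampled at 0 h and at 72 h. The labels number them 1 and 2 for FI-Delta and 3 and 4 for Y577F on the time arrays, which are read here as cultures. On 3 arrays between lines the numbers run the other way round, and they were read as the same 4 cultures, a reading that only the extract block described below uses. The other 8 arrays held 3 time arrays of FI-Delta cells, 3 arrays that compared the lines at 0 h and 2 that compared them at 72 h. Cells kept in IL-3 for 72 h and FDB1 cells without a mutant receptor were not analysed here, so time in culture and loss of IL-3 cannot be told apart. Whether each line was a clone or a pool is not given in the sources used here, and no feature carried the name of the common beta chain, so the receptors were not checked by their RNA.

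The common beta chain binds the kinase JAK2 and, once its tyrosines are phosphorylated, passes signals to STAT5 and to the Ras and ERK pathway. The tyrosine that Y577F lacks is a known docking site for the adaptor Shc. When a myeloid progenitor matures into a macrophage, it typically stops dividing, builds lysosomes and gains receptors for microbes and debris. A maturing neutrophil fills primary granules first, with enzymes such as elastase, and secondary and tertiary granules later, with proteins such as lactoferrin.

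One array carried RNA of culture 3 with 0 h in Cy5, and the other RNA of culture 4 with 72 h in Cy5. Both are given here as log2 ratios of 72 h over 0 h, so 1 unit is a 2-fold change. Culture and dye orientation go together on these 2 arrays and cannot be told apart between them. The direction of all values rests on reading the deposited ratios as Cy5 over Cy3. Each gene's change was estimated from a model of 9 hybridisations with all 4 RNA groups, and is given as that estimate ± its standard error (SE). The estimate can lie outside the values of both direct arrays, since it also uses the arrays between lines and removes a dye effect. A gene was called at a limma adjusted p under 0.05 over 20243 features, and "rose" and "fell" are used for called genes.

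After 72 h without IL-3, 1878 features were higher in Y577F cells (9.28% of those tested) and 1771 were lower (8.75%), which together is 18.0%. Read in this direction, large changes were more often increases, and with all signs turned they would be decreases. Of the called features, 282 were at least 2-fold higher and 92 at least 2-fold lower, while 30 were at least 4-fold higher and 6 at least 4-fold lower. Only Ctss and Egr1 reached 8-fold. Both arrays had the same sign for 3628 of the 3649 called features. The calls rest in part on these arrays, so this count is largely set by the call and is no separate measure of their agreement. The ratios of the arrays had a Pearson correlation of 0.631 over 21797 probes, which are not independent replicates. In RNA from whole cultures, fewer cells of a type and less RNA per cell cannot be told apart. With the culture 3 array left out, 1081 features were higher and 868 lower, and from the direct time arrays alone 1095 and 806. Counts and calls that move under that fit, or in a fit with each RNA extract as a block (the extract block), are given beside them below.

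**Figure D1:**
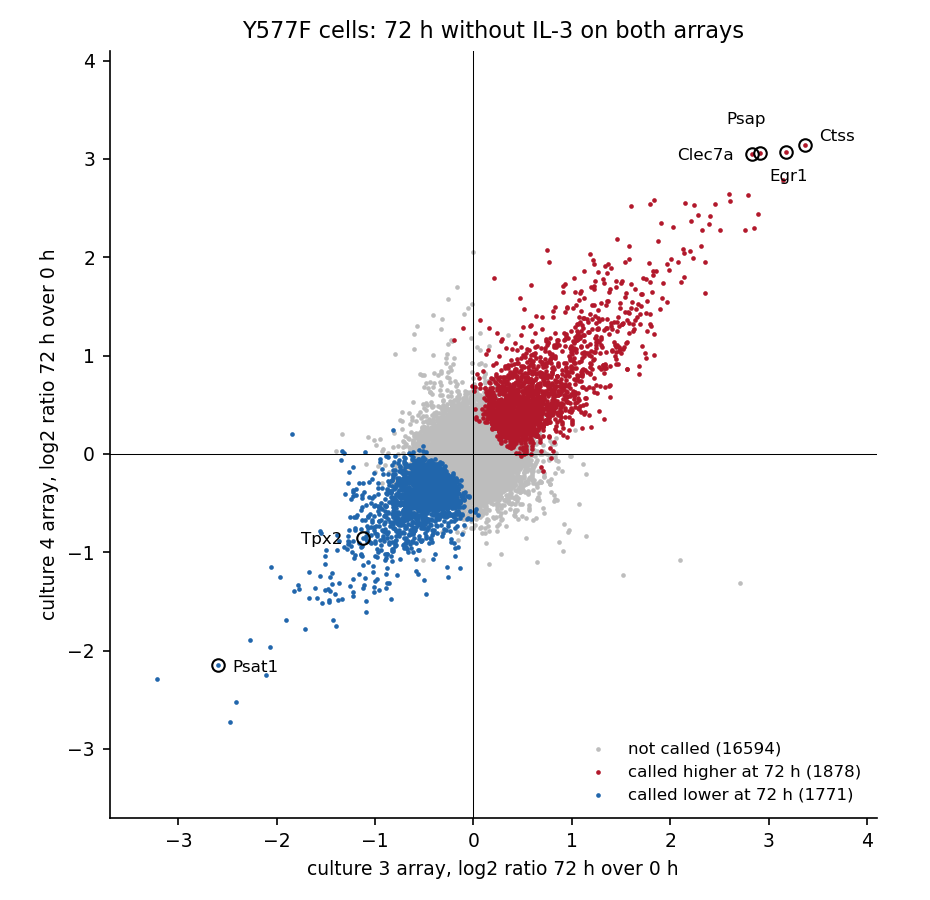
Log2 ratio of 72 h over 0 h for every feature on the culture 3 array (horizontal) and the culture 4 array (vertical), with 1878 features called higher in red, 1771 called lower in blue and the rest in grey. Ctss, Egr1, Clec7a and Psap lie together at the upper end on both arrays, and Psat1 near the lower end.

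The 6 genes that mark this comparison come from different programmes. Ctss encodes cathepsin S, a lysosomal protease that trims the chaperone of MHC class II. Its ratios were 3.37 in culture 3 and 3.14 in culture 4, and the estimate was 3.14 ± 0.09, which is 8.84-fold (adjusted p = 1e-08). Egr1, an immediate-early transcription factor, was at 3.18 and 3.07, with an estimate of 3.03 ± 0.10. The beta-glucan receptor Clec7a (Dectin-1) was at 2.83 and 3.05, with an estimate of 3.00 ± 0.09. For Psap, the precursor of the saposins that help degrade lysosomal sphingolipids, the arrays gave 2.91 and 3.06 and the model 2.92 ± 0.13. Psat1, an enzyme of serine synthesis, was at -2.60 and -2.15 and fell by 2.43 ± 0.12 on the log2 scale. Tpx2, a spindle assembly factor, was at -1.12 and -0.85 and fell by 1.01 ± 0.10. The arrays of both cultures gave all 6 the same sign and a similar size. The 6 were chosen with earlier results of these data known. Their agreement here, and their smaller changes in FI-Delta cells given next, may follow in part from that choice.

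In FI-Delta cells the same 72 h without IL-3 moved these genes less. The FI-Delta estimates were 1.48 for Ctss, 1.41 for Egr1, 1.50 for Clec7a, 1.26 for Psap, -0.88 for Psat1 and -0.06 for Tpx2. The estimates of the lines share the arrays that compare them, so the test of their difference is what separates them. That difference, Y577F minus FI-Delta, was 1.66 ± 0.11 for Ctss, 1.62 ± 0.12 for Egr1, 1.50 ± 0.10 for Clec7a and 1.66 ± 0.15 for Psap. It was -1.54 ± 0.14 for Psat1 and -0.95 ± 0.11 for Tpx2. The largest limma adjusted p among the 6 differences was 0.00032. Over all features the difference was called in 9.24%, with the Y577F change higher in 4.33% and lower in 4.91%.

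The 25 largest increases included many genes known from mature macrophages. After Ctss, Egr1, Clec7a and Psap came Hpca, which encodes the calcium sensor hippocalcin and was at 3.15 and 2.79 with an estimate of 2.91 ± 0.10. The macrophage elastase Mmp12 was at 2.85 and 2.30, and its estimate was 2.63 ± 0.11. The surface aminopeptidases Enpep and Anpep rose by 2.63 ± 0.11 and 2.44 ± 0.12. Dysf, encoding the membrane repair protein dysferlin, was at 2.15 and 2.55 and rose by 2.40 ± 0.12. Adgre4, an adhesion receptor of macrophages, rose by 2.27 ± 0.16, and F10, encoding coagulation factor X, by 2.16 ± 0.10. Rassf4, a Ras-association family member, rose by 2.14 ± 0.13.

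Among the 25 largest decreases the difference between the lines was called for 18, 17 of them lower in Y577F, and was not called for 7. Over all features it was called lower in 4.91%. These genes were chosen by their Y577F change, which is part of the difference, so a lean to lower differences follows in part from the choice. Tnfsf11, encoding the cytokine RANKL, was at -3.22 in culture 3 and -2.29 in culture 4 and fell by 2.62 ± 0.14, beside -1.68 in FI-Delta cells (difference -0.94 ± 0.17, adjusted p = 0.0047). Fam20a, of a family of secretory pathway kinases, fell by 2.60 ± 0.15, and its FI-Delta estimate was -2.09. Tmtc2 fell by 2.36 ± 0.11 beside -2.76 in FI-Delta cells. The differences between the lines for Fam20a and Tmtc2 were not called (adjusted p = 0.099 and 0.092). F2r, the thrombin receptor, fell by 1.62 ± 0.11, with an FI-Delta estimate of -2.34, and its difference of 0.72 ± 0.12 was called (adjusted p = 0.0041). Fdps of sterol synthesis and the granule protease gene Ctsg fell in Y577F cells while their FI-Delta estimates were 0.15 and 0.05.

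**Figure D2:**
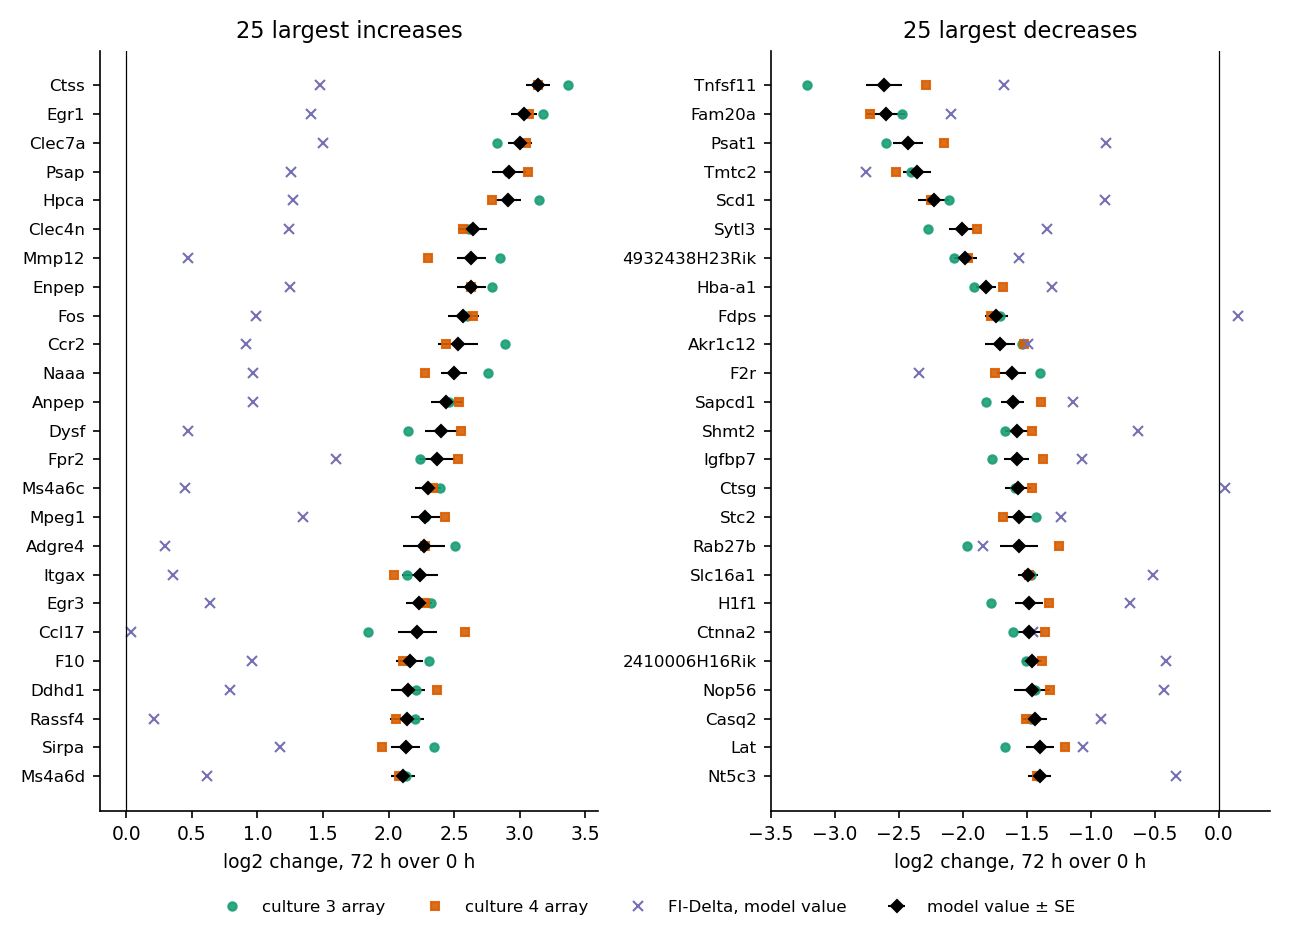
The 25 largest increases (left) and 25 largest decreases (right) among called genes with the same sign on both arrays, as log2 change of 72 h over 0 h, with the ratio on each array, the model value ± SE and the FI-Delta model value as a cross. The FI-Delta cross of Ccl17 lies at 0.04 and that of Fdps at 0.15, while those of Tmtc2 and F2r lie further from 0 than the Y577F values.

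Macrophage markers rose as a group, with 25 of 31 measured genes higher and none lower. Their median was 1.11, against 0.01 over all features and 0.47 for the same genes in FI-Delta cells. Ccr2, the monocyte chemokine receptor, was at 2.89 and 2.44 and rose by 2.53 ± 0.15. Mpeg1, a pore-forming protein of phagocytes, rose by 2.28 ± 0.11, the integrin chain Itgax by 2.24 ± 0.14 and the lysosomal glycoprotein Cd68 by 2.09 ± 0.09. Cx3cr1, the fractalkine receptor, was at 1.82 and 1.65, while its FI-Delta estimate was -0.09. The mannose receptor Mrc1 was at 1.80 in culture 3 and 2.54 in culture 4. Not every marker of the type moved. Adgre1, encoding F4/80, was at 0.39 and 0.08 with an estimate of 0.24 ± 0.08, and C1qa of complement was at -0.21 and 0.03. Lgals3 (galectin-3) was at -0.31 and -0.22. The difference between the lines was called higher in Y577F for 20 of the 31 and lower for 1, Itgam, whose change was 0.81 ± 0.10 beside 1.50 in FI-Delta cells. Csf1r had no named feature.

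Lectin, Fc and Toll-like receptor lists followed, and none of their members was lower. The lectin and Fc list also holds adaptors and receptors for the body's own ligands, and 23 of its 26 genes were higher. Of 21 Toll-like receptor and adaptor genes 12 were higher. The lectin list had a median of 1.13, against 0.81 in FI-Delta cells, and the Toll-like list of 0.42, against 0.17. The difference between the lines was called higher for 13 lectin list genes and lower for 2, and from the direct arrays alone for 4 and 1. In the Toll-like list it was called higher for 9 and lower for none, and from the direct arrays alone higher for 2. Clec4n (Dectin-2) was at 2.61 and 2.57, and Sirpa, the receptor for CD47, at 2.35 and 1.95. Clec4d rose by 2.03 ± 0.13 and Trem2 by 1.71 ± 0.11. Tlr2 was at 1.33 and 1.74, Cd180 at 1.40 and 1.33 and Tlr9, which senses DNA in endosomes, at 1.25 and 1.33. Unc93b1, which carries such receptors to endosomes, rose by 1.14 ± 0.11. Tlr4, the receptor for lipopolysaccharide, was at 0.29 and 0.16 and was not called, although its partner Cd14 rose by 1.03 ± 0.13. Trem3 was at -0.38 and -0.09 beside an FI-Delta estimate of 0.85.

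Lysosomal genes rose in both lists. Of 46 hydrolases and their activators 27 were higher and none lower, with a median of 0.52, against 0.23 in FI-Delta cells. Of 37 membrane proteins and proton pump subunits 29 were higher and none lower, with a median of 0.58, against 0.33. Naaa, which hydrolyses N-acylethanolamines, was at 2.76 and 2.28 and rose by 2.50 ± 0.10. The lysosomal lipase Lipa was at 1.86 on both arrays and rose by 1.81 ± 0.09 beside 0.46 in FI-Delta cells. Ctsl rose by 1.64 ± 0.12, while Ctsd was at -0.03 and -0.08. The membrane glycoprotein Lamp1 was at 1.50 and 1.74, and the cholesterol exporter Npc1 at 1.06 and 1.23. All 4 genes of the MiT/TFE family of transcription factors, known regulators of lysosomal genes, rose. Their changes were 1.31 ± 0.13 for Tfec, 0.60 ± 0.10 for Tfeb, 0.58 ± 0.09 for Tfe3 and 0.57 ± 0.09 for Mitf. The difference between the lines was called higher for 19 hydrolases and 13 membrane genes, and lower for 1 of each, Galns and Sort1, named after their values were seen. Leaving out the second line array at 72 h turned the 13 into 7, and neither of the 2 lower calls held with every array left out.

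The palindrome TCACGTGA is the core of the element that this family of factors binds. It was searched on both strands in the 250 bases before the first listed start of each gene (RefSeq, GRCm38.p6). Of 41 hydrolases with a promoter entry 2 held it (4.88%), against 0.803% of 27025 promoters in the table and 1.25% of 11755 promoters of genes on the array. These were Ctsd, which did not move, and Gla. Gla, encoding alpha-galactosidase A, was at 0.59 and 0.54 and rose by 0.53 ± 0.08. Its stretch is shown because it holds the element in duplicate, in capitals (chrX:134601176-134601255, minus strand, printed 5′ to 3′ along the gene).
Gla: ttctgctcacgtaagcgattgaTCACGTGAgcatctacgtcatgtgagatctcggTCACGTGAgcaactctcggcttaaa

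Of 32 lipid handling genes 19 were higher and 2 lower (median 0.38), and with the extract block 10 were higher and 1 lower. Fabp5, a fatty acid carrier, was at 2.14 and 1.80, and the sterol exporter Abcg1 at 1.25 and 1.08. Alox5, the first enzyme of leukotriene synthesis, was at -0.24 and -0.78 and fell by 0.53 ± 0.09, a call lost from the direct arrays alone and with the extract block. Acsl3, which activates fatty acids, fell by 1.21 ± 0.14. Of 29 iron and heme genes 12 were higher and 2 lower. The ferritin heavy chain gene Fth1 was at 1.05 and 1.25. Tfrc, the transferrin receptor that brings iron into dividing cells, was at -1.08 and -0.88 and fell by 0.98 ± 0.08. In FI-Delta cells Tfrc stood at 0.06, and the difference was -1.05 ± 0.09. The other iron gene that fell, Alad, lost its call under 11 settings.

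Immediate-early factors are transcription factors switched on within minutes of a growth signal, many through ERK. Of 36 measured 19 were higher at 72 h and 2 lower (median 0.49, against 0.12 in FI-Delta cells). Egr1 led, followed by Fos at 2.60 and 2.64 with an estimate of 2.57 ± 0.12, and Egr3 at 2.32 and 2.28 with 2.23 ± 0.10. Egr2 was at 1.34 and 0.91, Jun at 0.96 and 1.18, Junb at 1.34 and 0.68 and Ier2 at 1.43 and 1.14. Zfp36, encoding a protein that destabilises cytokine messages, rose by 1.41 ± 0.13. All of these values were above 0 on both arrays. The Nr4a1 ratios pointed in opposite directions, at -0.08 and 0.59. The 2 that fell were Myc, by 0.53 ± 0.08, and Id3, by 0.66 ± 0.15; Id3 was no longer called without either Y577F time array. The difference between the lines was called higher for 13 factors and lower for none. It was 1.58 ± 0.14 for Fos and 1.59 ± 0.12 for Egr3.

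The serum response factor, which ERK signalling acts on, binds the CArG box. In the window searched, 2 of 28 immediate-early promoters held it (7.14%), against 1.40% of all promoters and 1.34% of those on the array. They were Srf itself, at 0.24 and 0.11, and Zfp36. Variants of the box and bases further upstream were not searched, so the count does not show that the other genes lack it. The Zfp36 stretch is shown as the match whose gene rose, with the box in capitals (chr7:28379229-28379328, minus strand).
Zfp36: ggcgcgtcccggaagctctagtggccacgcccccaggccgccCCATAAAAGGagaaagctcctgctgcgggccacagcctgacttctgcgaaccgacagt

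Of 22 ERK feedback and ERK-responsive genes 6 were higher (27.3%) and 4 lower (18.2%), beside 9.28% and 8.75% over all features. The difference between the lines was called higher for 1 of the 22 and lower for none, and for none from the direct arrays alone. Phlda1 was at 1.23 and 1.51, Dusp1 at 1.23 and 0.63, and Dusp6, the phosphatase of ERK, at 0.81 and 0.41. The FI-Delta estimates of these genes were 1.15, 0.46 and 0.80. The 4 lower members were Spry4, at -0.44 and -0.12, Spred1, the ERK-induced factor Etv5 and the cytokine Lif. No member was lower without the culture 4 array, from the direct arrays alone or with the extract block, and 1 without the culture 3 array. Of 28 STAT5 and cytokine feedback genes 10 were higher and 2 lower, and 6 were higher from the direct arrays alone and 5 with the extract block. The STAT5 target Cish was at 0.45 and 0.65, and Pim1 at 0.44 and 0.35 beside an FI-Delta estimate of -0.40, a call that Pim1 lost under 6 settings. Socs1 was at -0.83 and -1.09 and fell by 0.98 ± 0.15, and Jak2 fell by 0.58 ± 0.08.

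Receptor chains for growth factors and cytokines were mostly higher, 18 of 31 rising and 2 falling, with a median of 0.31. With the culture 3 array left out 9 rose, as from the direct arrays alone, and with the extract block 8. Csf2ra, the GM-CSF receptor's own alpha chain, was at 1.45 and 1.76 and rose by 1.59 ± 0.10. Tgfbr1 was at 1.70 and 1.50, and the G-CSF receptor Csf3r at 0.91 and 1.65. Csf2rb2, the mouse beta chain specific to IL-3, was at 0.40 and 0.12 and was not called, beside an FI-Delta estimate of -0.62. Il18r1 was at -1.44 and -1.21 and Ifnar1 at -0.76 and -0.77.

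Inflammatory cytokine and NF-kB genes numbered 11 higher and 4 lower of 29. Il1rn, the IL-1 receptor antagonist, was at 1.09 and 1.66, the macrophage growth factor Csf1 at 1.31 and 1.37 and Tnf at 1.03 and 1.65. Il4 was at -0.84 and -0.44, and Il6 at -0.19 and -1.04. With the culture 4 array left out, from the direct arrays alone and with the extract block 2 members were lower, Il6 not among them, and the block left 7 higher. Of 30 chemokines and their receptors 9 were higher and none lower. Ccl17, a ligand of CCR4, was at 1.84 and 2.58 and rose by 2.22 ± 0.15, while its FI-Delta estimate was 0.04. Ccl3 was at 1.28 and 1.35. Complement and coagulation genes had 10 higher and 1 lower of 24, with Cfb, complement factor B, at 1.83 and 1.82. Of 28 peptidases and matrix enzymes 10 were higher and 2 lower, and neither decrease was called without the culture 3 array or from the direct arrays alone. Their median was 0.22, beside 0.23 in FI-Delta cells. The difference was called higher for 6 and lower for 4, and from the direct arrays alone for 3 and 1.

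Neutrophil granule genes were mostly lower or not called. Primary granule proteins had 4 of 15 higher and 9 lower (median -0.54, against 0.19 in FI-Delta cells). Ctsg, encoding cathepsin G, was at -1.59 and -1.46 and fell by 1.57 ± 0.10. Serpinb1a, a cytosolic inhibitor of these proteases, was at -1.09 and -1.50 and fell by 1.37 ± 0.09 beside 0.63 in FI-Delta cells. Neutrophil elastase Elane was at -0.82 and -0.99, proteinase 3 (Prtn3) at -0.91 and -0.71, and myeloperoxidase Mpo at -0.75 and -0.28. The call of Mpo was lost from the direct arrays alone and with the extract block. The 4 that rose were Ctsc, Hp, Cd63 and Ap3b1, of which Ctsc activates granule proteases and is also a lysosomal enzyme. Cd63 lost its call without the culture 3 array, and Ap3b1 from the direct arrays alone and with the extract block. Gzmb fell by 0.74 ± 0.12, and its FI-Delta estimate of -2.67 was lower. The difference was called lower in Y577F for 7 of the 15.

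Secondary and tertiary granule genes mostly did not pass the test in Y577F cells. Of 24 measured 5 were higher and 3 lower, with a median of 0.00, while the median of their FI-Delta estimates was 1.26. Lactoferrin, Ltf, was at -0.09 and 0.05 in Y577F cells, beside an FI-Delta estimate of 2.45 ± 0.23, and the difference was -2.21 ± 0.26. Camp, the cathelicidin, was at -0.36 and -0.37 beside 1.75 (difference -2.16 ± 0.17), and Ngp at -0.12 and -0.23 beside 1.71. Fcnb, a ficolin, fell by 0.44 ± 0.09 beside 1.66, and this decrease was not called from the direct arrays alone or with the extract block. The stefin genes Stfa1, Stfa2 and Stfa3, which encode cytosolic protease inhibitors, differed by -2.30, -1.76 and -2.17. Probes of such near-identical genes may detect several members. The list also holds genes of proteins that are not stored in granules, such as Stfa1 and the receptor gene Csf3r. S100a9 was at -1.35 and -0.06, and its call was lost without the culture 3 array, which left 1 gene lower; none was lower from the direct arrays alone and 1 with the extract block. The 5 that rose were Fpr2, Csf3r, Mmp8, Cybb and Ceacam1, the last not called from the direct arrays alone or with the extract block. Fpr2, a formyl peptide receptor, was at 2.24 and 2.53 and exceeded its FI-Delta change by 0.77 ± 0.16, a difference no longer called without the second line array at 72 h (FI-Delta estimate 1.60). The difference was called lower in Y577F for 18 of the 24 and higher for 3. The count of lower calls stayed 18 with each array left out, while that of higher calls ranged from 0 to 3.

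MHC class II genes, which present antigen to T cells, had 6 of 12 higher and none lower, with a median of 0.35 against -0.60 in FI-Delta cells. H2-DMa, a peptide loading factor, was at 1.27 on the culture 3 array and 1.28 on the culture 4 array and rose by 1.15 ± 0.11. H2-Aa was at 0.70 and 0.51 and H2-Ea at 0.77 and 0.41, with FI-Delta estimates of -1.78 and -1.85. Their differences were 2.36 ± 0.12 and 2.41 ± 0.16, and that of H2-Eb1 was 2.05 ± 0.15. The Y577F increase of H2-Eb1 lost its call under 7 settings, and those of H2-Aa and H2-Ea without the culture 3 array. The master regulator Ciita was at 0.07 and -0.37. Leaving out the culture 3 array left 2 class II genes higher, whereas the difference was called higher for 9 of the 12 and for 8 to 10 with an array left out. Of 18 MHC class I and antigen processing genes 5 were higher and 1 lower, with B2m at 1.51 and 1.76; 2 were higher without the culture 3 array, from the direct arrays alone or with the extract block, and 3 without the first line array at 72 h.

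**Figure D3:**
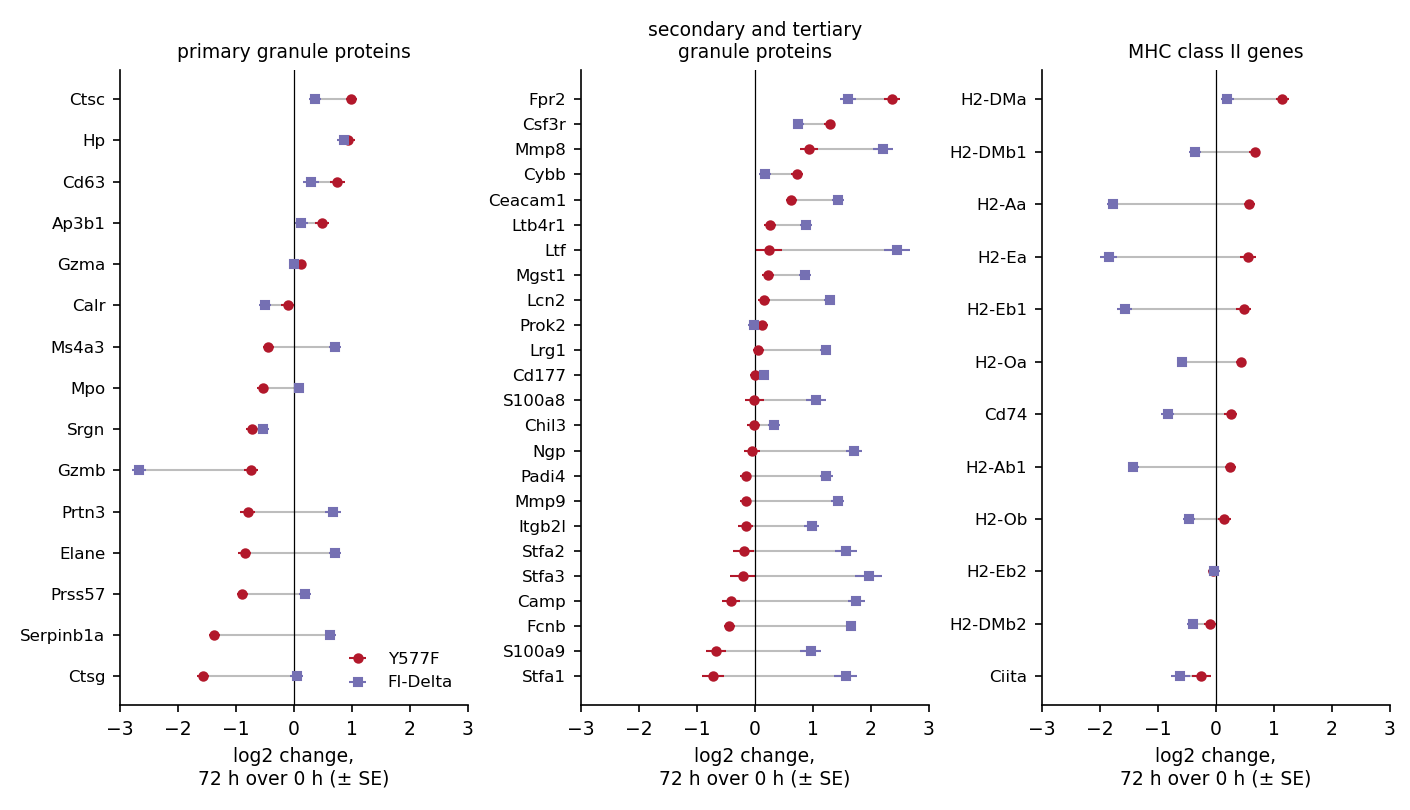
Log2 change of 72 h over 0 h ± SE in Y577F cells (red circles) and FI-Delta cells (purple squares) for each measured gene of 3 lists, joined by a grey line. Most secondary and tertiary granule genes lie near 0 in Y577F cells and at about 1 to 2 in FI-Delta cells, and most class II genes lie above 0 in Y577F cells and below it in FI-Delta cells.

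Markers of other blood lineages were examined because a culture of progenitors could hold them. Of 21 mast cell and basophil markers 7 were lower (33.3%) and 2 higher (9.52%), beside 8.75% and 9.28% over all features. The 2 that rose were Mitf, by 0.57 ± 0.09, and Kit, by 0.35 ± 0.08. The call of Kit was lost, leaving 1 increase, without the culture 3 array, from the direct arrays alone or with the extract block. Mcpt8, a basophil protease, was at -1.05 and -0.90 and fell by 1.06 ± 0.12. Cpa3, the mast cell carboxypeptidase, was at -0.66 and -0.81, while its FI-Delta estimate was -2.57 and the difference 1.80 ± 0.12. Erythroid and megakaryocyte markers had 4 higher and 4 lower of 22 (18.2% each). The count of increases was 1 without the culture 3 array, from the direct arrays alone or with the extract block, and 2 without the culture 4 array. Vwf was at 1.21 and 0.86 and rose by 1.04 ± 0.10, a call kept under 19 settings. Pf4 rose by 0.44 ± 0.10, a call lost under 4 settings. Hba-a1, alpha globin, was at -1.91 and -1.69 and fell by 1.82 ± 0.08. Lymphoid markers had 2 higher and 2 lower of 23 (8.70% each), near the 9.28% and 8.75% over all features, with a median of -0.02. Without the culture 4 array or from the direct arrays alone 1 was lower. With the extract block none was higher and 1 lower. Levels cannot be read from ratios, so the presence of any marker at 0 h was not measured.

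Transcription factors of blood cells had 17 of 61 higher and 13 lower. Tcf7l2 was at 1.83 and 1.86, and the monocyte factors Irf5 and Irf8 at 1.36 and 1.84 and at 1.24 and 1.18. Zeb2 rose by 1.48 ± 0.13, Cebpb by 1.36 ± 0.09, Id2 by 1.82 ± 0.12 and Spi1, encoding PU.1, by 0.74 ± 0.10. Myb, which maintains progenitors, was at -1.13 and -1.04 and fell by 1.12 ± 0.09, against -0.15 in FI-Delta cells (difference -0.97 ± 0.11). Its relative Mybl2 was at -1.20 and -0.75, Gata2 at -0.80 and -0.92 and Cebpa at -0.58 and -0.54. Cebpa was not called without either Y577F time array. Leaving out the culture 3 array left 5 factors lower, and the direct arrays alone gave 8.

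Genes of cell division fell. Of 56 mitosis genes 42 were lower and none higher, with a median of -0.43 against 0.03 in FI-Delta cells. Pimreg, a mitotic regulator, was at -1.51 and -1.12, and after Tpx2 came Ndc80 of the kinetochore, at -1.02 and -1.14, and Cenph, which fell by 0.94 ± 0.11. Ube2c, which marks cyclins for destruction, was at -1.07 and -0.63 and fell by 0.79 ± 0.09. Cyclin B2 (Ccnb2) was at -0.67 and -0.44, its kinase Cdk1 at -0.59 and -0.43 and the proliferation marker Mki67 at -0.44 and -0.35, which lost its call under 3 settings. Of the 56, Pimreg and Tpx2 were the members lower by 2-fold or more. Plk1 was at -0.27 and -0.08 and Aurkb at 0.03 and 0.11, and neither was called. With the culture 3 array left out, 22 mitosis genes were lower, and with the extract block 25. The difference between the lines was called lower for 38, and for 25 without the second line array at 72 h.

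Mitotic promoters are known for the CHR element, TTTGAA, and for CCAAT boxes. In the 250 bases searched on both strands, TTTGAA stood in 15 of 45 mitosis promoters (33.3%), against 16.3% of all promoters and 12.3% of those on the array. Of the 15, 11 were called lower and 4 not called. CCAAT stood in 33 (73.3%), against 34.5% and 35.9%, with 23 called lower and 10 not called. Of all 45 genes 34 were called lower, so holders of either motif were not called lower more often than the rest of the list. Ccnb2, Cdk1 and Ube2c are shown since each fell and holds both. Capitals mark the CHR element and the CCAAT boxes on either strand. The stretches run to the base before the start, at chr9:70421555-70421734 (minus strand), chr10:69352913-69353012 (minus) and chr2:164769829-164769928 (plus).
Ccnb2: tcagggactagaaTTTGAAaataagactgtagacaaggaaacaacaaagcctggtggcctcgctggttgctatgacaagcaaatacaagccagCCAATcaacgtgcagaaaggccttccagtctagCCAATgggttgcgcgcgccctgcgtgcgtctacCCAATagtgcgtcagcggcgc
Cdk1: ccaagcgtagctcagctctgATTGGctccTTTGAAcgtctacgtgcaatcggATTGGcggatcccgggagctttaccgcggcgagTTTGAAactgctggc
Ube2c: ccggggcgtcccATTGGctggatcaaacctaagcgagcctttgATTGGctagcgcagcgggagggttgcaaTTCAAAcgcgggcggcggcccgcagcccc

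DNA replication genes fell with them, 39 of 60 being lower and none higher (median -0.38, against -0.09 in FI-Delta cells). Mcm3, of the replicative helicase, was at -1.14 and -1.02 and fell by 1.06 ± 0.08. Tipin, which protects the fork, was at -0.90 and -1.02. Mcm6 was at -0.69 and -0.91 and fell by 0.84 ± 0.12. Pcna, the sliding clamp, was at 0.05 and -0.21 and was not called. From the direct arrays alone 25 were lower. The difference was called lower for 22, and for 11 without the second line array at 72 h. Nucleotide synthesis had 13 lower and 1 higher of 31, with Dut, which clears dUTP, at -1.56 and -1.24; 8 were lower without the culture 4 array and 7 from the direct arrays alone or with the extract block, and none was higher without the culture 3 array or in those fits. The E2F site variants TTTGGCGC and TTTCCCGC, searched on both strands, stood in 8 of 49 replication promoters (16.3%), against 1.35% of all promoters and 2.11% of those on the array. Of the 8 genes, 4 were called lower, and Mcm7 (-0.02), Cdc6 (0.03), Gins3 (-0.17) and Brca2 (-0.00) were not called. Of all 49 genes 31 were called lower, so holders of the site were not called lower more often. Mcm6 is shown because its gene fell and its promoter holds the site in duplicate, in capitals (chr1:128359736-128359825, minus strand).
Mcm6: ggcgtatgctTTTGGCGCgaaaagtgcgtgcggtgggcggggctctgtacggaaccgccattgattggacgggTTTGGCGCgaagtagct

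Ribosome assembly and Myc target genes had 37 of 55 lower and 2 higher, with a median of -0.46 against -0.26 in FI-Delta cells. Nop56, of the box C/D particles that modify ribosomal RNA, was at -1.44 and -1.32 and fell by 1.46 ± 0.14. Nolc1 was at -1.27 and -0.77 and Npm1 at -0.76 and -0.51. The 2 that rose were the arginine methyltransferase Prmt1, at 1.31 and 1.09, and Bop1, by 0.33 ± 0.09, which was not called without either Y577F time array, from the direct arrays alone or with the extract block. With the culture 3 array left out, 24 were lower. The ribosomal proteins themselves, 52 of the cytosolic ribosome, had 3 higher (5.77%) and 1 lower (1.92%), beside 9.28% and 8.75% over all features. The counts were 1 and 0 without the culture 3 array or with the extract block, and none was called from the direct arrays alone. The median of these 52 genes was -0.21 on the culture 3 array and 0.17 on the culture 4 array. No other list of the 7 plotted had medians of opposite signs.

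**Figure D4:**
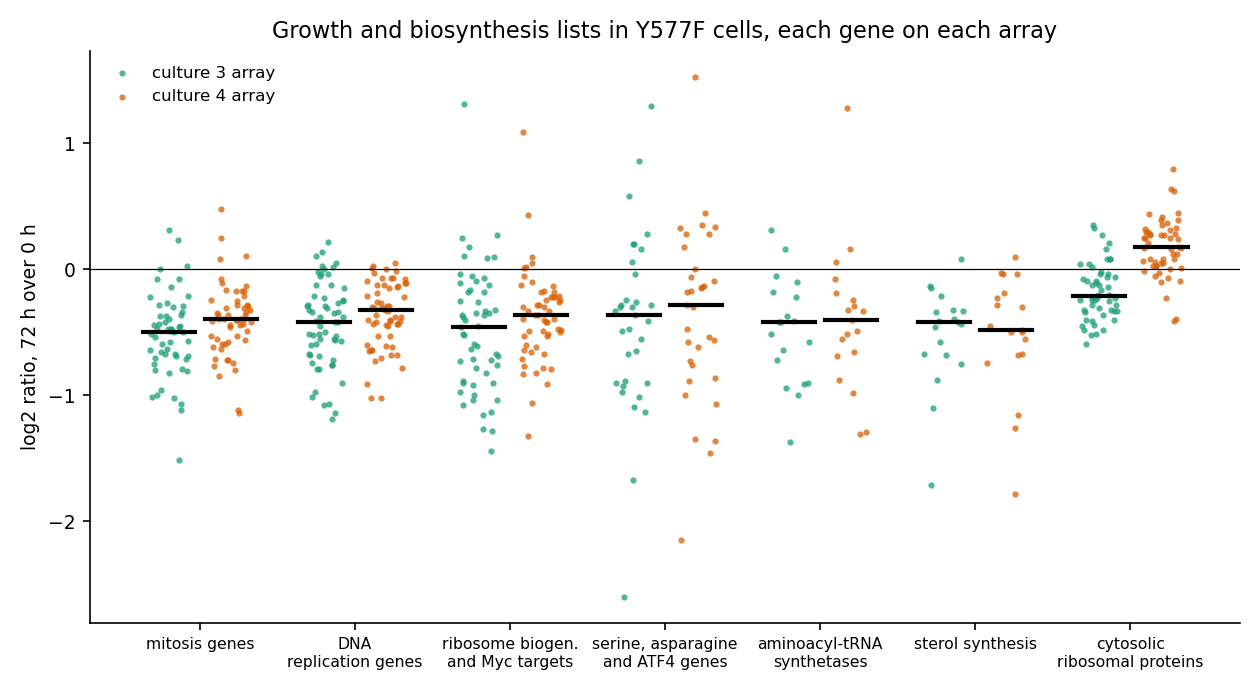
Log2 ratio of 72 h over 0 h for each gene of 7 growth and biosynthesis lists on the culture 3 array (green) and the culture 4 array (orange), with a bar at each median. The medians lie below 0 on both arrays for the first 6 lists, and on opposite sides of 0 for the cytosolic ribosomal proteins.

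Many genes of amino acid supply fell. Of 33 genes of serine and asparagine synthesis and other targets of the stress factor ATF4, 17 were lower and 2 higher (median -0.39, against -0.12 in FI-Delta cells). After Psat1 came Shmt2, the mitochondrial enzyme that turns serine into one-carbon units, at -1.67 and -1.46. Asns, asparagine synthetase, was at -0.89 and -1.36, and Psph, the last step of serine synthesis, at -1.09 and -0.86. Atf4 itself was at -1.01 and -1.35 and fell by 1.16 ± 0.09, against -0.02 in FI-Delta cells (difference -1.14 ± 0.10). Phgdh, the first step, was at -0.49 and -0.30 and lost its call under 12 settings. The 2 that rose were Cebpb and Atf3, and Atf3 was not called from the direct arrays alone, with the extract block or without the culture 4 array. The difference was called lower for 14, and for 8 without the second line array at 72 h. The motif TGATGNAAT, searched on both strands, stood in 2 of 31 of these promoters (6.45%), those of Nupr1 and Fgf21, against 0.825% of all and 0.664% on the array. Neither gene was called.

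Enzymes that load amino acids onto tRNA had 11 of 19 lower and 1 higher. Yars was at -1.37 and -1.31 and fell by 1.36 ± 0.10 beside -0.21 in FI-Delta cells, and Lars fell by 1.19 ± 0.09. Aars, the one that rose, was at 0.16 and 1.28 with an SE of 0.25, and lost its call under 12 settings, among them either Y577F time array left out. Amino acid transporters had 7 of 16 lower and 2 higher. Their median was -0.18, beside -0.26 in FI-Delta cells. The difference was called lower for 5, and for none from the direct arrays alone. Slc1a4 was at -1.09 and -1.61 and Slc1a5 at -1.13 and -0.94, and Slc7a5 fell by 0.98 ± 0.08. Slc7a7, one of the 2 that rose, was not called without either Y577F time array or under 5 other settings, and the extract block left 4 transporters lower.

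Sterol synthesis had 12 of 19 lower and none higher, with a median of -0.47 against 0.01 in FI-Delta cells. Fdps, which makes farnesyl diphosphate, was at -1.71 and -1.78 and fell by 1.74 ± 0.09 beside 0.15, a difference of -1.89 ± 0.11. Idi1 was at -1.10 and -1.26 and Cyp51 at -0.88 and -1.16. Sqle was at -0.13 and -0.23 and was not called. With the culture 4 array left out, 7 were lower. An exact form of the sterol regulatory element, on both strands, stood in 0 of 15 of these promoters and in 0.0629% of all. Variants of this form were not searched, so the count does not show that these promoters lack the element. Fatty acid synthesis had 9 of 20 lower and none higher. Scd1, which introduces the double bond of oleate, was at -2.11 and -2.25 and fell by 2.23 ± 0.12. Scd2 was at -0.84 and -1.47 and Fasn at -0.51 and -0.64, the last not called without the culture 4 array.

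Regulators of survival were higher more often than all features, while the share that was lower lay near that of all features. Of 32 genes of the Bcl2 family and cell death 9 were higher (28.1%) and 3 lower (9.38%). The shares over all features were 9.28% and 8.75%. The anti-apoptotic genes Bcl2a1d and Mcl1 were at 2.01 and 1.98 and at 1.46 and 1.34. Bcl2a1a, a near-identical relative of Bcl2a1d, was at 1.78 and 1.94, and probes of such genes may detect several members. Bcl2l11, encoding the pro-apoptotic Bim, was at 1.25 and 1.11. Bcl2 was at -0.54 and -0.55 and fell by 0.49 ± 0.12, and Bid fell by 0.66 ± 0.09. Leaving out the culture 3 array left 5 higher and 1 lower, the direct arrays alone gave 5 higher and the extract block 4 higher and 1 lower, and Bcl2 was not called without either Y577F time array. Of 41 cell cycle inhibitors and G1 regulators 12 were higher (29.3%) and 2 lower (4.88%), with Btg1 at 1.51 and 1.32 and Btg2 at 1.54 and 1.44. In this list 5 were higher without the culture 3 array and 7 from the direct arrays alone. The count of lower members was 1 in some fits with an array left out and with the extract block, and none was lower from the direct arrays alone. Cdkn1b, encoding p27, was at 0.70 and 0.18 and was not called.

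**Figure D5:**
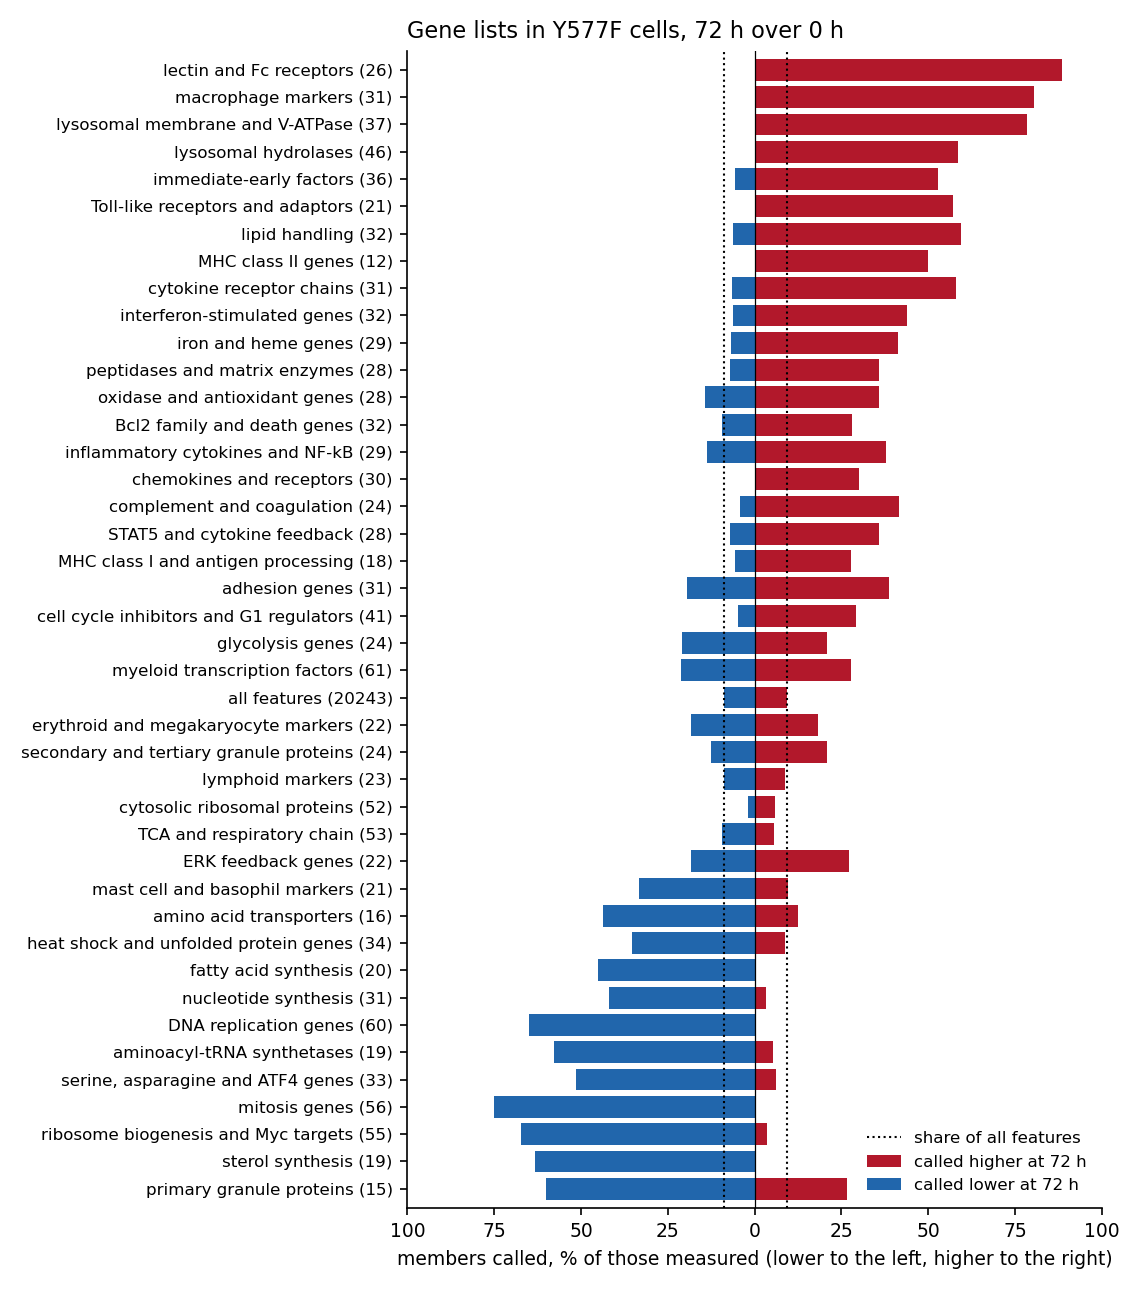
Share of measured members called higher (right, red) and lower (left, blue) in Y577F cells at 72 h for each of 41 gene lists and for all features, ordered by median change, with the number measured in brackets and dotted lines at 9.28% and 8.75%. Lectin, macrophage and lysosomal lists lie at the top, and primary granule, sterol, ribosome assembly and mitosis lists at the bottom.

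Compared over the whole array, 1256 of the 3649 features called in Y577F cells also had a called difference from FI-Delta cells in the direction of their change, 655 of them higher and 601 lower. Another 53 had a called difference in the opposite direction, and for 2340 no difference was called, which does not show that they changed alike. The features were chosen by their Y577F change, which is part of the difference, so the lean to the direction of that change follows in part from the choice. The count of called differences, 1871, fell to 911 without the second line array at 72 h, to 951 without the first line array at 0 h and to 210 from the direct time arrays alone. From those arrays alone the difference was called higher for 12 macrophage, 6 hydrolase, 2 lysosomal membrane, 5 immediate-early and 7 class II genes. It was called lower for 11 secondary granule, 6 primary granule, 2 mitosis, 0 replication, 2 serine and ATF4 and 3 sterol genes. The 10 largest differences with Y577F higher were those of H2-Ea, H2-Aa, Ccl17, Mmp12, H2-Eb1, Adgre4, Dysf, Rassf4, Gzmb and Ms4a6b. The 10 with Y577F lower were those of Stfa1, Ltf, Stfa3, Camp, 1700054A03Rik, Fcnb, Serpinb1a, Fdps, Stfa2 and Ngp. Ms4a6b, of a family of macrophage membrane proteins, was at 1.60 and 2.52 in Y577F cells beside an FI-Delta estimate of 0.19. 1700054A03Rik, with no known role given here, was at -0.14 and -0.37 beside 1.89.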

How the data were processed

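For each spotted array the authors deposited normalised log2 ratios; limma is named in the submitters' processing notes without version or settings. Log base 2 and the direction Cy5 over Cy3 were assumed from this. The sign of the culture 3 array was turned. The arrays' ratios correlated at -0.631 before turning. Signal intensities were not used, and precision is limited by how many arrays there are.

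Of 23040 spots, 1243 controls were left out. Of 21797 probes, 16651 carried 1 symbol, 137 several and 5009 none. Probes of the same symbol were averaged, giving 20243 features. A dye swap of the same FI-Delta RNA was averaged, leaving 9 hybridisations. They were fitted with limma 3.58.1 (R 4.3.3) with 3 coefficients, a dye term, 5 residual degrees of freedom and 6.34 prior ones. P-values were two-sided and adjusted by Benjamini-Hochberg over all features, measure only the spread between these arrays, and treat arrays as independent although extracts are shared. The fit was checked on simulated data.

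The members and the 41 gene lists were chosen with earlier results of these data known. Named genes are the 25 largest called changes in each direction with the same sign on both arrays, up to 6 called members of each list and up to 3 against its direction, the 6 markers, the 10 largest differences in each direction, and receptor chains. Others, such as Adgre1, C1qa, Lgals3, Ctsd, Pcna, Plk1, Itgam, Gla, Ccnb2 and Cdk1, were named after their values were seen, as were list members given to show what did not move and the genes whose promoters are printed. Alternatives were the direct arrays alone, no dye term, a replicate block, array weights, scaling, centring, other feature definitions and each array left out. Promoters are RefSeq's on GRCm38.p6.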

Additional observations from a re-analysis of the deposited data

Results flagged for a closer look

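These results stand out because the 72 h change of Y577F cells differed from that of FI-Delta cells by the test of the difference itself (limma, adjusted p under 0.05). There were 1871 such features, and the values below are differences of log2 changes, Y577F minus FI-Delta, for the genes whose difference the text names.

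Among macrophage and lysosomal genes the differences were 1.66 for Ctss and for Psap, 1.50 for Clec7a, 2.16 for Mmp12, 1.97 for Adgre4, 1.93 for Dysf, 1.87 for Cx3cr1, 1.91 for Ms4a6b and 1.35 for Lipa. Ccl17 differed by 2.18 and Rassf4 by 1.93. Itgam differed by -0.69 although it rose in Y577F cells. Immediate-early factors differed by 1.62 for Egr1, 1.58 for Fos and 1.59 for Egr3. The class II genes H2-Aa, H2-Ea and H2-Eb1 differed by 2.36, 2.41 and 2.05.

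Genes described with the granule lists do not all encode granule proteins. They differed by -2.30 for Stfa1, -1.76 for Stfa2, -2.17 for Stfa3, -2.21 for Ltf, -2.16 for Camp, -2.10 for Fcnb, -1.76 for Ngp, -2.00 for Serpinb1a and -1.62 for Ctsg. Fpr2 went the other way at 0.77. Gzmb and Cpa3, which fell in Y577F cells, had lower FI-Delta estimates and differed by 1.93 and 1.80. 1700054A03Rik differed by -2.10. Growth and supply genes differed by -1.54 for Psat1, -0.95 for Tpx2, -1.89 for Fdps, -1.14 for Atf4, -0.97 for Myb and -1.05 for Tfrc.

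All 37 differences kept their sign under every setting tried that uses the same features. For 33 the call was kept as well. Those of Tpx2 and Myb were not called from the direct arrays alone, that of Itgam also not with a replicate block, and that of Fpr2 under 5 settings.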

How the results depend on the processing

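Counts are given as features higher, lower and with a called difference between the lines, against 1878, 1771 and 1871 (3649 called in all in Y577F cells). From the direct arrays alone they were 1095, 806 and 210 (1901 in all). With RNA extracts as replicate block the counts were 986, 735 and 440 (1721 in all). The block rests on reading the numbers as 4 cultures, against the order printed on 3 arrays between lines, and pairs no samples across lines. With each array left out in turn, 1081 to 1879 features were higher, 868 to 1748 lower and 1949 to 3627 called in all, the lowest values without the culture 3 array. Differences numbered 911 without the second line array at 72 h, 951 without the first at 0 h, and up to 1861. All other settings tried gave counts within 1.5 times those reported. Of the 277 called genes named by the rule, none changed sign in 19 settings, and 3 uncalled ones did (Ltf, Ngp and Stfa3). Of 45 genes named outside the rule, none of the 23 called ones changed sign, and 7 uncalled ones did. Signal over background was not measured by these ratios, so dim spots could not be told from bright ones.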

Other observations

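Several gene groups not described above also moved in Y577F cells. Of 32 interferon-stimulated genes 14 were higher and 2 lower, led by Trim30a, a regulator of innate signalling, at 1.09 on both arrays, and 6 were higher without the culture 4 array and none lower without the culture 3 array. From the direct arrays alone 7 were higher and 1 lower, and with the extract block 9 and 0. Adhesion genes had 12 higher and 6 lower of 31, with the integrin chain Itgb2 at 1.79 and 1.42, the hyaluronan receptor Cd44 at 1.49 and 1.07 and Cd48 at -0.96 and -0.68. Of 28 oxidase and antioxidant genes 10 were higher and 4 lower. Cybb, the catalytic chain of the phagocyte oxidase, was at 0.86 and 0.43, and superoxide dismutase Sod1 at -0.71 and -0.72; 6 were higher without the culture 3 array, and 2 lower from the direct arrays alone. Heat shock and unfolded protein genes had 12 lower (35.3%) and 3 higher (8.82%) of 34, beside 8.75% and 9.28% over all features. The median of this list was -0.19, beside -0.22 in FI-Delta cells. The difference was called lower for 4 and higher for 2, and for none from the direct arrays alone. The mitochondrial chaperone Hspd1 was at -1.08 and -0.79. Without the culture 3 array or with the extract block 7 were lower. With an array left out 0 to 2 were higher, and none from the direct arrays alone or with the block.

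Energy metabolism moved in both directions or little. Glycolysis genes had 5 higher and 5 lower of 24, and Slc16a1, the lactate and pyruvate transporter, was at -1.47 and -1.48 while Gapdh was at 0.01 and 0.04. Without the culture 3 array 2 were higher, and without the culture 4 array 2 were lower. The direct arrays alone gave 2 and 2, and the extract block 2 and 3. Of 53 genes of the citric acid cycle and respiratory chain 3 were higher and 5 lower, beside 9.28% and 8.75% over all features; none was higher without the culture 4 array and 2 were lower without the culture 3 array. From the direct arrays alone 1 was lower, and with the extract block 1 was higher.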
